A study of Mus musculus with 3186 samples.

Results

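The genes described here encode proteins that move calcium ions across cell membranes, take part in this, or share a symbol with such genes. They were chosen by symbol: the subunits of voltage-gated calcium channels (symbols starting with Cacn), the numbered TRPC, TRPM and TRPV channels, the IP3 receptors (Itpr1 to Itpr3), the ryanodine receptors (Ryr1 to Ryr3), the Orai and Stim proteins, the calsequestrins, the calcium pumps of the Atp2a, Atp2b and Atp2c families, and phospholamban (Pln). The rule found 70 of the 19937 genes of the deposited count tables. At least 2 of these match by symbol only and are no channels. Trpc4ap encodes a protein that binds a TRP channel, and Trpc5os is a transcript from the strand opposite Trpc5. The gamma genes (Cacng) were taken by name, and whether each serves a calcium channel was not examined. No measured value entered this rule, although earlier results of these data were known when the genes were chosen.

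A cell raises its cytosolic calcium by letting it in through channels of the plasma membrane or by releasing it from the endoplasmic or sarcoplasmic reticulum, and pumps return it to both places. In mural cells of blood vessels calcium sets the tension of the actin and myosin filaments. Voltage-gated channels open on depolarisation, TRP channels respond to receptors, lipids, stretch or heat, and Orai channels open when the store sensor Stim reports an empty reticulum. IP3 receptors and ryanodine receptors are the release channels of the store, calsequestrin holds calcium inside it, SERCA pumps (Atp2a) refill it, and phospholamban is a small membrane protein that restrains SERCA. PMCA pumps (Atp2b) expel calcium from the cell, and SPCA pumps (Atp2c) load the Golgi.

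The data are 3186 single brain cells of adult C57BL/6 mice aged 12 to 15 weeks, sorted by fluorescence into 384-well plates and sequenced full length by SMART-seq2. The Cldn5(BAC)eGFP line, whose transgene marks endothelium, gave 1445 cells on 4 plates. The line carrying both Pdgfrb(BAC)eGFP and NG2dsRed gave 1484 cells on 4 plates, and each of its reporters alone marks other cells too. The Pdgfra-H2BGFP line, which marks perivascular cells and the oligodendrocyte lineage, gave 257 cells on 2 plates. Because no animal is named in the labels, a line counts as 1 sample, cells and plates are not replicates, and no test of a difference was possible. Levels are therefore given in CPM, the read count of a gene scaled to a common total, pooled over the cells of a class, with the range over plates that held at least 10 cells of it. A pooled level does not tell fewer expressing cells from less RNA per cell. The share of single cells at 100 CPM or more is given beside it for the genes the results turn on. This level was chosen after the values were seen, and such a share cannot fully separate the 2 either, as less RNA per cell also lowers it.

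Cells were grouped with a random set of 9868 genes, from which all 70 calcium genes were left out, and clusters were named from marker genes. This gave 1130 pericyte-like and 115 smooth muscle-like cells of the mural line, 1462 endothelial-like cells (293 arterial-like, 880 capillary-like and 289 venous-like), 84 fibroblast-like, 150 oligodendrocyte-like, 17 oligodendrocyte progenitor-like and 21 microglia-like cells. A further 116 mural cells formed a sub-cluster that passed for neither mural type. Its leading genes were Adamts16, Olfr78 and Tmem255b, and it is called the Adamts16-led cells here. It drew 52 cells from clusters first named pericyte-like and 64 from those first named smooth muscle-like. The 8 smooth muscle markers summed to 4714 CPM in pericyte-like, 31592 CPM in Adamts16-led and 67849 CPM in smooth muscle-like cells, and the 8 pericyte markers to 63815, 18431 and 2073 CPM. Defining markers of the endothelial-like, fibroblast-like and oligodendrocyte-like classes were high in their own cells. The sums were 22141 CPM over 9 endothelial, 29555 CPM over 7 fibroblast and 117520 CPM over 8 oligodendrocyte markers. In progenitor-like cells the 7 progenitor markers summed to 3602 CPM, below the 9 endothelial (6197 CPM) and 8 pericyte markers (6072 CPM). In microglia-like cells the 7 microglia markers summed to 31011 CPM and 5 perivascular macrophage markers to 2282 CPM. Another 83 cells stayed unnamed. Reads per cell ranged from 99905 to 1606954 with a median of 350339, and the median per class was 336536 in pericyte-like, 344204 in Adamts16-led, 381386 in smooth muscle-like and 345952 in endothelial-like cells. No 2 cells had identical counts.

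All 70 genes had at least 1 read in some cell. At least 5 CPM in at least 1 named class was reached by 46 of them, and 24 stayed below it, 13 of these below 1 CPM in each class. The 24 included the skeletal muscle pore subunit Cacna1s (highest level 4.86 CPM), the skeletal release channel Ryr1 (2.03 CPM), the skeletal SERCA pump Atp2a1 (2.45 CPM) and the heat sensor Trpv1 (0.25 CPM). By class, 29 genes reached 5 CPM in pericyte-like cells, 33 in smooth muscle-like, 20 in endothelial-like, 33 in fibroblast-like and 17 in oligodendrocyte-like cells. In all 5 of these large classes 10 genes reached it. They included the pumps Atp2a2, Atp2b1 and Atp2c1, the release channel Itpr2, the channel-kinase Trpm7, and Trpc4ap. The rest were the store-operated genes Orai1, Orai3, Stim1 and Stim2. Among the 43 genes with at least 10 CPM in some named class, the pericyte-like one was the highest of the 5 large classes for 13. The smooth muscle-like class was highest for 12, the fibroblast-like for 9, the endothelial-like for 5 and the oligodendrocyte-like for 4. None of these counts was made over all genes, so they do not set the calcium genes apart from others.

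**Figure D1:**
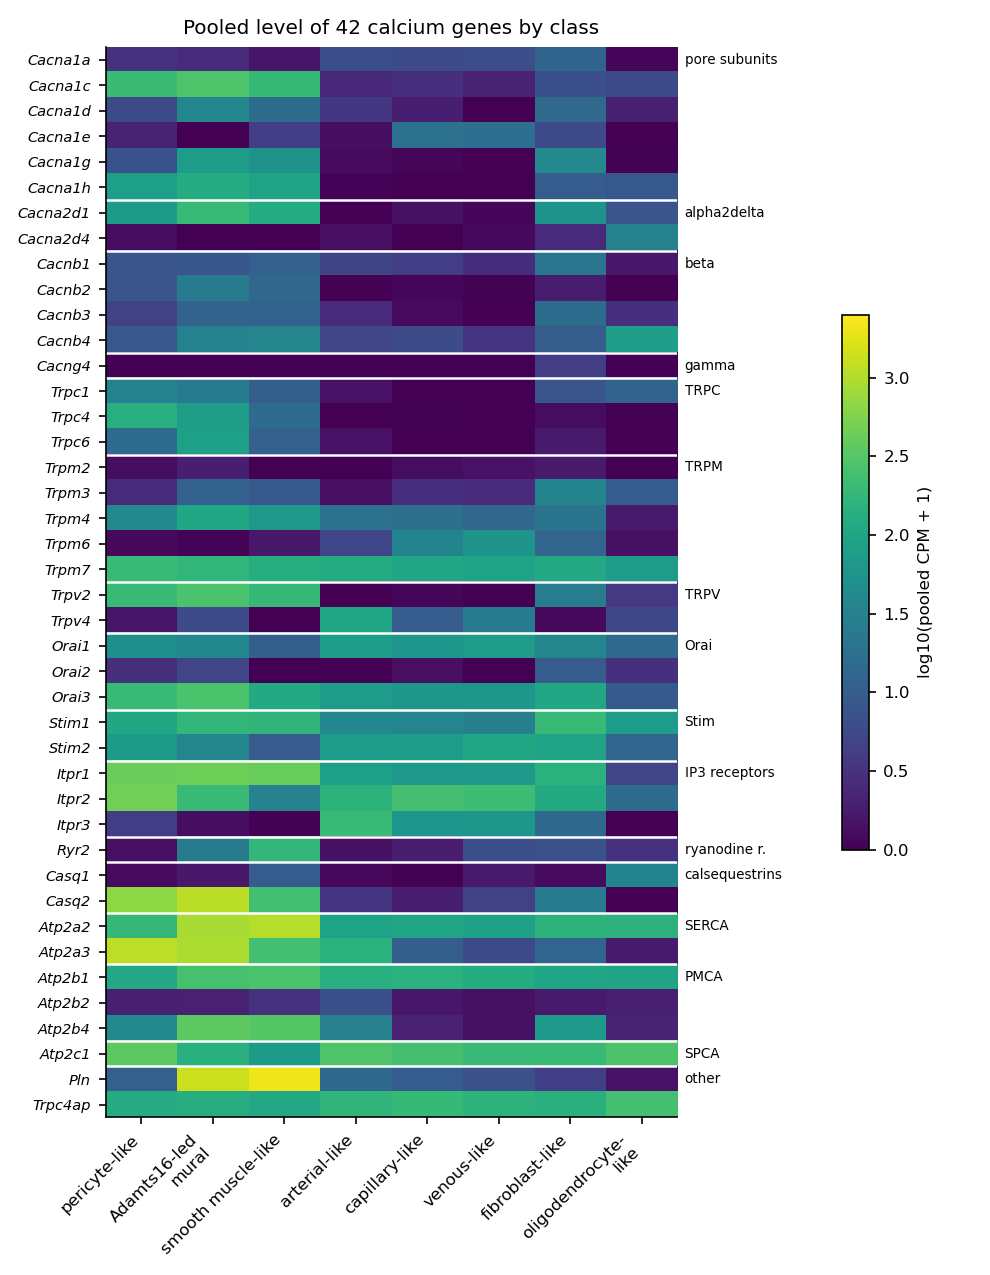
Pooled levels of 42 calcium genes with at least 10 CPM in some named class (rows, grouped by family) in 8 classes of cells (columns), coloured by log10(pooled CPM + 1). Pln reached 2048 CPM in smooth muscle-like cells, Atp2a3 1163 CPM in pericyte-like cells and Casq2 1131 CPM in Adamts16-led cells, while Trpm7 and Atp2c1 were read in every column.

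Smooth muscle-like and pericyte-like cells came from the same 4 plates. Of 33 calcium genes with at least 5 CPM in either class, 11 were at least 2-fold higher in smooth muscle-like cells and 9 at least 2-fold lower, on a log2 scale with 1 CPM added. For comparison, of the 5505 genes with 5 CPM that had taken no part in the clustering, 13.2% were higher and 21.7% lower. The ranges over the 4 plates were also apart for 6 of the 11 and for all 9 of the lower genes, against 8.05% and 15.8% of the comparison genes. The median log2 ratio was 0.13 over the 33 genes and -0.22 over the comparison genes. Without the plate Mural5 the higher genes numbered 8, as Cacna1d (log2 ratio 0.70), Cacnb3 (0.80) and Trpm3 (-0.55) no longer passed. The 6 higher genes with plates apart were Pln, Ryr2, Atp2b4, Cacna1g, Atp2a2 and Atp2b1, and among the 9 lower ones were Itpr2, Trpc4, Stim2, Atp2c1, Atp2a3, Orai1, Trpc1 and Casq2. Smooth muscle-like cells thus held more of 3 pumps, of the SERCA inhibitor, of 1 release channel and of 1 T-type channel. Pericyte-like cells held more of the SERCA pump Atp2a3, of the Golgi pump and of another release channel. They also held more of Trpc4, Trpc1, Stim2, Orai1 and Casq2.

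**Figure D2:**
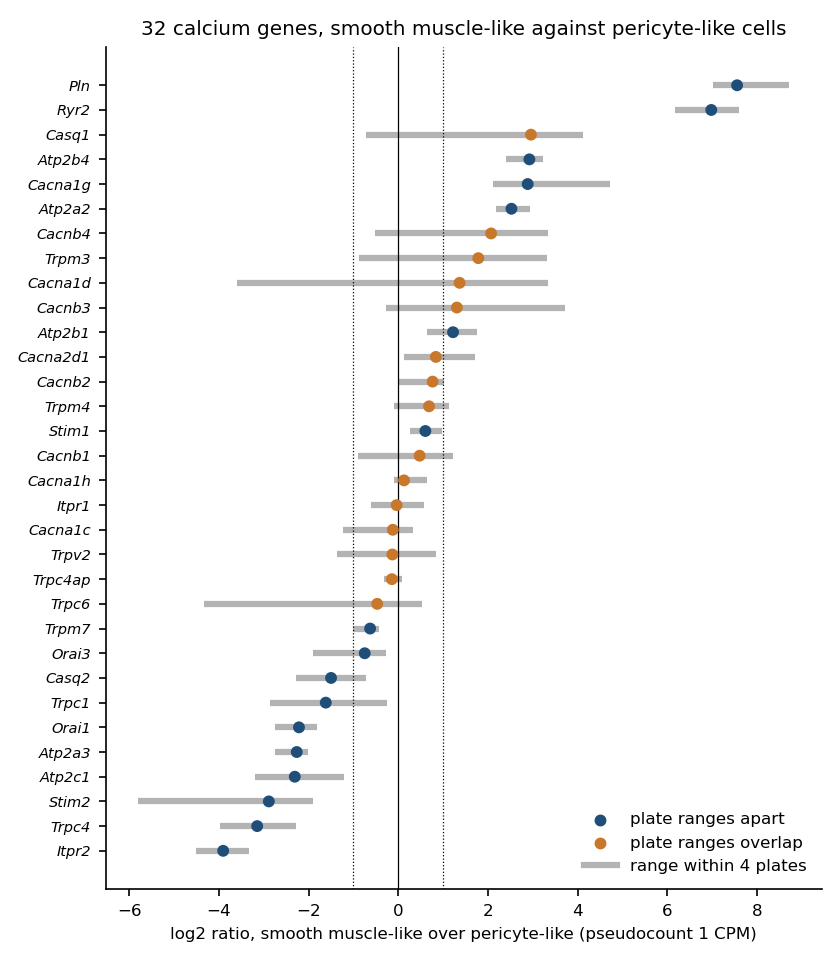
Log2 ratio of pooled CPM (1 CPM added) in smooth muscle-like over pericyte-like cells for 32 of the counted calcium genes (points; blue where the ranges over plates were apart, orange where they overlapped), with the lowest and highest ratio within the 4 mural plates (grey bars). Dotted lines mark 2-fold; Pln (7.56) and Ryr2 (6.98) lie farthest right and Itpr2 (-3.90) farthest left.

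Phospholamban had the largest log2 ratio of the set, 7.56. Pln lies on chromosome 10 at 53337667 to 53345987 on the plus strand (mm10, GENCODE M21). On the 4 plates it was at 7.77, 13.5, 3.47 and 14.5 CPM in pericyte-like cells and at 2124, 2230, 1889 and 1997 CPM in smooth muscle-like cells, a pooled difference of 207-fold. Every plate of one class lay far above every plate of the other. The pooled level of 2048 CPM had an exact 95% Poisson interval of 2035 to 2061 CPM, which covers counting error only and is narrower than the range over plates. All 115 smooth muscle-like cells were at 100 CPM or more, as were 62 of 116 Adamts16-led cells (53.4%, exact 95% interval 44.0 to 62.8) and 18 of 1130 pericyte-like cells (1.59%, 0.947 to 2.51). Of the 180 pericyte-like cells with any Pln read, 133 had a single one. The libraries carry no strand, and exons of Pln overlap Cep85l and Gm47644 on the other strand. Cep85l was at 19.6 CPM in pericyte-like cells and 30.2 CPM in smooth muscle-like cells.

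Ryr2, the cardiac-type ryanodine receptor on chromosome 13, followed the same order at a lower level, 6.10 CPM per kilobase of exon in smooth muscle-like cells against 742 for Pln. It was at 0.40, 0.42, 0.57 and 0.21 CPM on the 4 plates in pericyte-like cells and at 99.5, 231, 133 and 235 CPM in smooth muscle-like cells, 443-fold higher when pooled. At 100 CPM or more were 46 of 115 smooth muscle-like cells (40.0%, 31.0 to 49.6), 5 of 116 Adamts16-led cells and 0 of 1130 pericyte-like cells, which allows a share of up to 0.265%. Pln thus reached 100 CPM in each smooth muscle-like cell and Ryr2 in 40.0% of them, at pooled levels of 2048 and 176 CPM. A lower pooled level by itself lowers such a share. Per kilobase of exon, Ryr2 made up 99.6% of the ryanodine receptor level in smooth muscle-like cells, and Ryr1 and Ryr3 stayed below 5 CPM in every named class.

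The promoter windows of 4 store and entry genes are shown because their levels set the mural classes apart: Pln and Ryr2 highest in smooth muscle-like cells, Casq2 and Trpc6 in Adamts16-led cells. Each is the 250 bases before the RefSeq start (GRCm38.p6), written 5′ to 3′ on the gene's strand: Pln chr10:53337436-53337685 plus, Ryr2 chr13:12106946-12107195 minus, Casq2 chr3:102086165-102086414 plus and Trpc6 chr9:8543892-8544141 plus. Capitals mark a CArG box, the site of serum response factor that contractile genes are known for, searched on both strands by its consensus with no mismatch.
Pln: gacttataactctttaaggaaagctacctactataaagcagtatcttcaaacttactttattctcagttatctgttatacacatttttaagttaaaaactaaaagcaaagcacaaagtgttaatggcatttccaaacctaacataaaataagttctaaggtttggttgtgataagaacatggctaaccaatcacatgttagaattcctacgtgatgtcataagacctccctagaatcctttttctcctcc
Ryr2: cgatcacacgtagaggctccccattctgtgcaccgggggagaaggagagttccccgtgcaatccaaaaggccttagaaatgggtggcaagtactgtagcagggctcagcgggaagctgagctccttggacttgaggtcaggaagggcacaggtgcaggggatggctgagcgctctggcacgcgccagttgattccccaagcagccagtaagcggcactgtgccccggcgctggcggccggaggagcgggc
Casq2: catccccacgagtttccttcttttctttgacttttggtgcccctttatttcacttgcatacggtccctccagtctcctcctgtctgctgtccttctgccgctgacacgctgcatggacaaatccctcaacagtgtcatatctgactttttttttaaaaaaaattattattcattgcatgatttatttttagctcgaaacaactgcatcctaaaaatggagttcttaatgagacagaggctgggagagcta
Trpc6: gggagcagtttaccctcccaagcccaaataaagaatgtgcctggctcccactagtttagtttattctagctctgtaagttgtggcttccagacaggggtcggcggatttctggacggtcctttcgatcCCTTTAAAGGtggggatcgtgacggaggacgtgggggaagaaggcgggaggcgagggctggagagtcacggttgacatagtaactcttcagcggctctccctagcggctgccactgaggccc
The box in Trpc6 starts 122 bases before the start site. Windows of 300 bases, which add the first 50 transcribed bases, were at hand for 57 of the 70 genes, and 2 of them (Trpc6 and Trpv1) held a CArG box. Over all 27025 genes with a window the share was 1.81%. None of the 9 genes at least 2-fold higher in smooth muscle-like cells that had a window held one, and none of the 8 lower genes did. These letters not being in the window says nothing of sites elsewhere.

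Both SERCA pumps of these cells ranked in opposite order in the 2 mural classes. Atp2a3 was at 1009, 1215, 1223 and 1187 CPM on the 4 plates in pericyte-like cells and at 199, 302, 181 and 286 CPM in smooth muscle-like cells, 4.81-fold lower when pooled. Atp2a2, the pump that phospholamban is known to bind in heart, was at 207, 163, 213 and 155 CPM in pericyte-like cells and at 1001, 1254, 979 and 1050 CPM in smooth muscle-like cells, 5.78-fold higher. Neither pair of plate ranges overlapped. Compared per kilobase of exon, Atp2a3 made up 87.9% of the SERCA level in pericyte-like cells, 55.6% in Adamts16-led cells and 20.7% in smooth muscle-like cells, while the summed SERCA level was 251, 330 and 221 CPM per kilobase. The sum thus varied less than its parts. Within single cells, Atp2a2 exceeded Atp2a3 per kilobase in 130 of the 1092 pericyte-like cells that read either (11.9%, exact 95% interval 10.0 to 14.0), in 50 of 116 Adamts16-led cells (43.1%, 33.9 to 52.6) and in 100 of 114 smooth muscle-like cells (87.7%, 80.3 to 93.1). Atp2a2 shares exon sequence with Gm43361 on the other strand.

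Casq2, the cardiac-type calsequestrin, did not follow the contractile genes. It was at 703, 542, 637 and 788 CPM on the 4 plates in pericyte-like cells, at 638, 1146, 1334 and 1161 CPM in Adamts16-led cells and at 427, 231, 155 and 161 CPM in smooth muscle-like cells. The smooth muscle-like plates lay below all pericyte-like ones, and 3 of the 4 Adamts16-led plates lay above them. At 100 CPM or more were 376 of 1130 pericyte-like cells (33.3%, 30.5 to 36.1), 71 of 116 Adamts16-led cells (61.2%, 51.7 to 70.1) and 26 of 115 smooth muscle-like cells (22.6%, 15.3 to 31.3). Casq1, the skeletal type, reached 8.73 CPM in smooth muscle-like cells, with plates from 0.00 to 16.4 CPM. Endothelial-like cells held 1.83 CPM of Casq2, 366-fold less than pericyte-like cells.

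Of the IP3 receptors, Itpr1 was level between the mural classes and Itpr2 was not. Itpr1 was at 414 CPM in pericyte-like cells and 404 CPM in smooth muscle-like cells, with overlapping plates. Itpr2 was at 398, 466, 538 and 504 CPM on the 4 plates in pericyte-like cells and at 38.7, 19.4, 40.2 and 25.4 CPM in smooth muscle-like cells, 15.4-fold lower when pooled. Itpr1 thus made up 91.3% of the IP3 receptor level per kilobase in smooth muscle-like cells, 65.3% in Adamts16-led and 40.8% in pericyte-like cells, through the level of Itpr2. Itpr3 was at 3.18 CPM in pericyte-like cells and 0.046 CPM in smooth muscle-like cells. The summed level of the family was 55.4 CPM per kilobase in pericyte-like and 24.2 in smooth muscle-like cells.

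**Figure D3:**
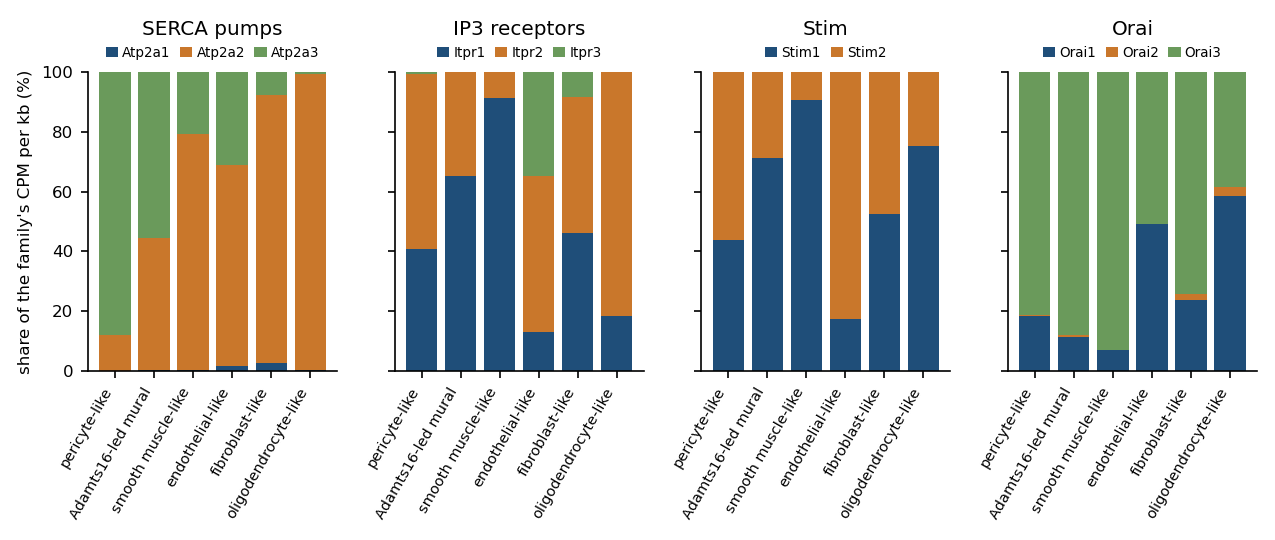
Share of each paralogue in the summed CPM per kilobase of exon of its family (stacked bars adding to 100%) for SERCA pumps, IP3 receptors, Stim and Orai in 6 classes. From pericyte-like to smooth muscle-like cells the share of Atp2a3 goes from 87.9% to 20.7%, that of Itpr2 from 58.6% to 8.7%, that of Stim2 from 56.3% to 9.4% and that of Orai1 from 18.4% to 7.0%.

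At the plasma membrane, 4 voltage-gated pore subunits reached 5 CPM in pericyte-like or smooth muscle-like cells. Cacna1c, the L-type channel of vascular muscle, was at 204 CPM in pericyte-like, 285 CPM in Adamts16-led and 188 CPM in smooth muscle-like cells, and the T-type channel Cacna1h was at 83.0, 127 and 90.9 CPM. The plates of pericyte-like and smooth muscle-like cells overlapped for both. The other T-type channel, Cacna1g, was at 1.30, 7.15, 11.6 and 4.60 CPM on the 4 plates in pericyte-like cells and at 59.7, 52.5, 53.6 and 47.1 CPM in smooth muscle-like cells, 8.42-fold higher when pooled. It was also at 72.0 CPM in Adamts16-led cells, and of the 4 pore subunits counted it alone had plates apart between the 2 named mural classes. Cacna1d, another L-type pore, was at 5.14 CPM in pericyte-like cells and 14.9 CPM in smooth muscle-like cells, where its plates ranged from 0.00 to 32.8 CPM. Its log2 ratio of 1.37 went to 0.87 without Mural3 and to 0.70 without Mural5.

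The accessory subunits were read mainly as 1 alpha2delta and 4 beta genes. Cacna2d1, which brings the pore to the membrane, was at 69.7 CPM in pericyte-like, 199 CPM in Adamts16-led and 126 CPM in smooth muscle-like cells, and made up 95.8%, 99.98% and 99.97% of the alpha2delta level per kilobase. Cacnb4 was at 7.38 and 34.2 CPM, Cacnb2 at 6.81 and 12.3 CPM, Cacnb1 at 6.86 and 9.95 CPM and Cacnb3 at 3.66 and 10.5 CPM in pericyte-like and smooth muscle-like cells. Only Cacnb4 and Cacnb3 passed 2-fold, each with overlapping plates, and the log2 ratio of Cacnb3 (1.31) went to 0.80 without Mural5 and to 0.95 without Mural6. The gamma subunits all stayed below 5 CPM in each mural class.

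Of the TRPC channels, Trpc4 and Trpc1 were higher in pericyte-like cells. Trpc4, a channel opened downstream of phospholipase C, was at 170, 113, 128 and 133 CPM on the 4 plates in pericyte-like cells and at 22.6, 22.6, 8.08 and 7.56 CPM in smooth muscle-like cells, 9.39-fold lower when pooled. It reached 100 CPM in 230 of 1130 pericyte-like cells (20.4%, 18.0 to 22.8) and in 6 of 115 smooth muscle-like cells (5.22%, 1.94 to 11.0). Trpc1, a partner of other TRPC channels, was at 23.7, 53.1, 24.0 and 28.0 CPM in pericyte-like cells and at 6.16, 6.52, 19.9 and 5.99 CPM in smooth muscle-like cells, 3.27-fold lower. The plates of the 2 classes were apart for both genes, by less for Trpc1, whose level on Mural5 in smooth muscle-like cells came near the lowest pericyte-like plate. In Adamts16-led cells Trpc4 went from 13.6 to 117 CPM over the plates and overlapped both other classes.

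Trpc6, which is opened by diacylglycerol, had its highest level in Adamts16-led cells. It was at 32.8, 27.6, 92.4 and 168 CPM on the 4 plates there, against 10.7, 17.2, 8.35 and 20.8 CPM in pericyte-like cells and 14.3, 16.6, 12.5 and 0.080 CPM in smooth muscle-like cells. The Adamts16-led plates lay above all others, although they differed widely among themselves. At 100 CPM or more were 15 of 116 Adamts16-led cells (12.9%, 7.42 to 20.4), 26 of 1130 pericyte-like cells (2.30%, 1.51 to 3.35) and 4 of 115 smooth muscle-like cells (3.48%, 0.956 to 8.67). The pooled level thus rests on few cells. Its promoter is the one printed above with a CArG box.

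The remaining TRP channels of mural cells were closer to even. Trpv2, a channel of the vanilloid family, was at 202, 276 and 184 CPM in pericyte-like, Adamts16-led and smooth muscle-like cells or 99.0%, 98.0% and 99.7% of the TRPV level per kilobase. Trpm7, a channel for magnesium and calcium, was at 201, 174 and 130 CPM. Trpm4, which is opened by calcium and passes sodium, was at 39.9, 110 and 64.9 CPM, and its Adamts16-led plates lay above all plates of both other classes. Trpm3 was at 1.54 and 7.77 CPM in pericyte-like and smooth muscle-like cells, with overlapping plates, and without the plate Mural5 its log2 ratio turned from 1.79 to -0.55.

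Of the store-operated genes, Orai3 was the most abundant Orai in both mural classes. It was at 199 CPM in pericyte-like, 275 CPM in Adamts16-led and 118 CPM in smooth muscle-like cells, or 81.4%, 88.2% and 93.0% of the Orai level per kilobase. Orai1, the pore of the classical store-operated current, was at 48.1 CPM in pericyte-like cells and 9.58 CPM in smooth muscle-like cells, 5.02-fold lower with plates apart. The sensor Stim1 was at 109 and 167 CPM and its relative Stim2 at 69.9 and 8.60 CPM, so that Stim1 made up 43.7% of the Stim level per kilobase in pericyte-like and 90.6% in smooth muscle-like cells. In cells that read either, Stim1 exceeded Stim2 per kilobase in 288 of 502 pericyte-like cells (57.4%, 52.9 to 61.7) and in 64 of 68 smooth muscle-like cells (94.1%, 85.6 to 98.4). For Stim as for the IP3 receptors, then, the pooled smooth muscle-like level was mostly 1 paralogue where the pericyte-like one was 2 at similar levels. Among single pericyte-like cells that read either gene, 63 of 502 read both Stim genes and 704 of 1069 both Itpr1 and Itpr2. Stim1 led Stim2 in most of these 502 cells, although Stim2 had the larger share of the pooled level.

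The pumps that remove calcium from the cell were higher in smooth muscle-like cells. Atp2b4 was at 50.3, 44.4, 34.8 and 36.7 CPM on the 4 plates in pericyte-like cells and at 269, 326, 319 and 355 CPM in smooth muscle-like cells, 7.76-fold higher when pooled. Atp2b1, the widely expressed PMCA pump, was at 111 and 260 CPM, also with plates apart. The summed PMCA level was 10.7 CPM per kilobase in pericyte-like and 43.3 in smooth muscle-like cells. The Golgi pump Atp2c1 went the other way, with 349 CPM in pericyte-like and 69.8 CPM in smooth muscle-like cells, 5.00-fold lower. Exons of Atp2c1 overlap Aste1 on the other strand.

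**Figure D4:**
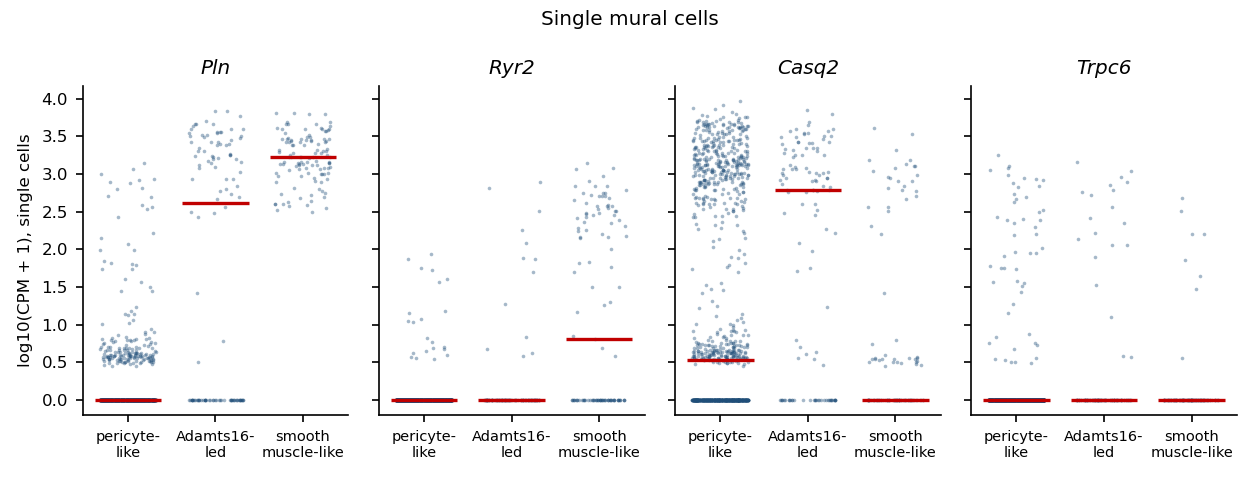
Single mural cells (points) by class, with the level of Pln, Ryr2, Casq2 and Trpc6 as log10(CPM + 1) and the median of each class (red line). All 115 smooth muscle-like cells lie at 100 CPM of Pln or more (2 on this axis), and for Casq2 the 3 classes hold 376 of 1130, 71 of 116 and 26 of 115 such cells.

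Mural cells were also ordered without clusters, by a score of 6 contractile genes (Acta2, Tagln, Myh11, Cnn1, Mylk and Lmod1, none of them a calcium gene), cut into 5 ranges of equal width with open ends. The ranges held 989, 165, 47, 79 and 117 cells, of which 151 lay within 0.25 of an inner edge, so a range is a stretch of the score and no cell type. Of 34 calcium genes with at least 10 CPM in some range, 3 were highest in the first range, 7 in the second, 10 in the third, 9 in the fourth and 5 in the fifth. Of the 5367 comparison genes at that level, 17%, 18.3%, 25.8%, 20.1% and 18.7% were highest in the first to the fifth range. Markers of other cells moved with the score: the 9 endothelial markers summed to 2242, 2050, 1535, 1349 and 600 CPM over the ranges and the 7 fibroblast markers to 945, 870, 536, 203 and 328 CPM. Their part in the levels was not tested.

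Of the 34 genes, 4 ran in 1 direction over all 5 ranges. The share of comparison genes that did so was not worked out, so 4 is neither few nor many. Atp2a2 was at 167, 251, 510, 1045 and 1059 CPM and Atp2b4 at 30.9, 76.2, 264, 340 and 362 CPM from the first range to the fifth. Itpr2 was at 488, 415, 257, 162 and 31.7 CPM and Atp2c1 at 364, 272, 147, 125 and 75.9 CPM. The order of these 4 genes is that of pooled levels, and their steps were unequal, as the last one of Itpr2 and of Atp2a2 shows. Plates of Atp2c1 in the third range went from 6.51 to 420 CPM and overlapped those of the first, at 309 to 429 CPM. Some further genes differed mainly at 1 step. Pln was at 10.7, 5.21, 55.3, 1541 and 2228 CPM, and the share of cells with a Pln read was 12.8% in the third range and 74.7% in the fourth. Ryr2 was at 0.98, 1.18, 0.00, 19.2 and 181 CPM, with its step 1 range later. Atp2a3 held at 1139, 1199, 1100 and 868 CPM over 4 ranges and was at 251 CPM in the fifth.

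Other genes were highest in the middle. Casq2 was at 557, 1210, 1774, 783 and 227 CPM, and its plates in the third range, from 1262 to 2151 CPM, lay above all plates of the first, the fourth and the fifth. Trpc6 was at 9.77, 32.5, 121, 69.0 and 9.47 CPM, with plates from 63.1 to 186 CPM in the third range against at most 19.1 CPM at both ends. Cacna1g was at 2.19 CPM in the first range and at 35.5, 64.5, 55.8 and 52.6 CPM in the others, so its main step was an earlier one than that of Pln, although its plates in the third range went from 0.00 to 157 CPM. Itpr1, at 415, 376, 458, 402 and 446 CPM, had overlapping plates throughout. Between the first and the second range, the plates of Cacna1g, Casq2 and Atp2b4 were each apart, with at most 5.02, 679 and 42.5 CPM in the first against at least 6.85, 1092 and 44.6 CPM in the second.

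**Figure D5:**
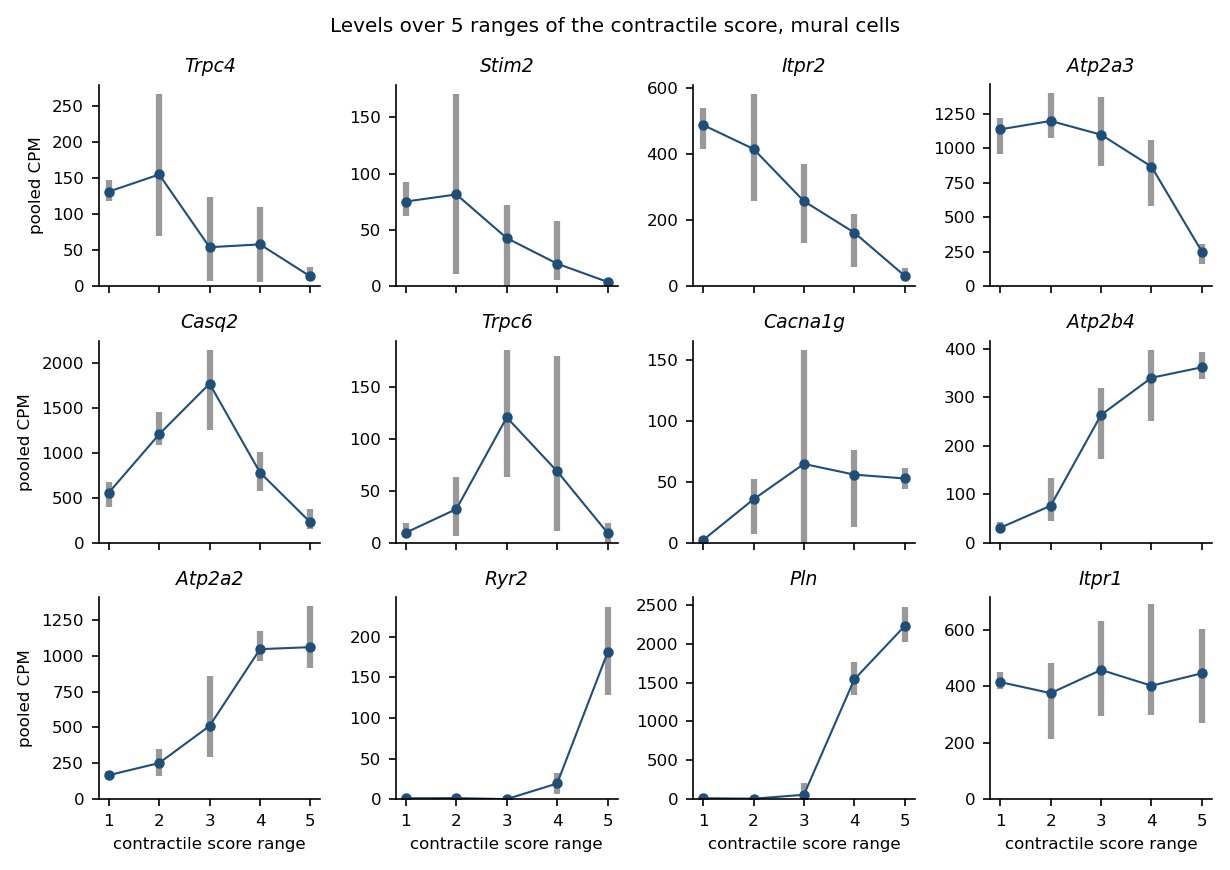
Pooled CPM of 12 calcium genes (points and lines) in 5 ranges of the contractile score, with the lowest and highest plate in grey; each panel has its own axis from 0. Casq2 and Trpc6 are highest in the third range (1774 and 121 CPM), Pln is at 55.3 CPM there and at 1541 CPM in the fourth, and Ryr2 is at 181 CPM in the fifth.

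When all cells were clustered at resolution 2, before mural cells were clustered again, the 116 Adamts16-led cells did not lie together. A cluster of 207 cells held 47 of them and no smooth muscle-like cell, with Casq2 at 1670 CPM and Pln at 41.8 CPM, and a cluster of 178 cells held 62 of them with all 115 smooth muscle-like cells, with Casq2 at 306 CPM and Pln at 2117 CPM. Clustering of all cells at resolution 1 had also put them apart, as 52 and 64 cells. The pooled values of the Adamts16-led cells therefore mix cells that clustering of all cells put apart at both resolutions. Of 31 calcium genes with at least 10 CPM in a mural class, 17 were higher in Adamts16-led cells than in both, 14 lay between and 0 lay below both. Of the 5101 comparison genes at that level, 32.4% lay above both, 43.4% between and 24.1% below. The ranges over plates were apart from both other classes for 2 of the 17, Trpc6 and Trpm4, as for 1.2% of the comparison genes. Cacna1d, at 36.4 CPM, and Trpc6, at 84.8 CPM, were at least 2-fold above both, as were 3% of the comparison genes. The summed level of the pore subunits was 36.7 CPM per kilobase in these cells, against 19.6 in pericyte-like and 24.8 in smooth muscle-like cells, and that of the SERCA pumps 330 against 251 and 221. Their median read number, given above, lay between those of the other 2.

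Genes that work with the calcium set were taken from 9 lists chosen by role, and their counts in smooth muscle-like against pericyte-like cells can be set beside the 13.2% higher and 21.7% lower of the comparison genes. Of the calmodulins and their kinases 6 of 11 counted genes were higher and 1 lower, for example the kinase Camk2g (571 against 68.8 CPM), Calm2 (1365 against 458 CPM) and, lower, Camkk1 (0.023 against 30.8 CPM). Of the regulators of voltage-gated channels 5 of 8 were higher and 2 lower: the small GTPases Gem (423 against 13.0 CPM) and Rrad (894 against 217 CPM) were higher and their relative Rem1 (4.11 against 124 CPM) lower. Rem1, Gem and Rrad belong to 1 family known to restrain these channels, and these 3 members went in both directions. Prkcb, a protein kinase C, was at 0.092 against 32.7 CPM.

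Of the store buffering and release accessories 4 of 20 were higher and 4 lower. The higher end held sarcalumenin (Srl, 195 against 1.37 CPM) and junctophilin 2 (Jph2, 159 against 2.77 CPM), which ties the reticulum to the plasma membrane, and the lower end held Rcn1 (23.3 against 73.3 CPM) and sorcin (Sri, 98.9 against 225 CPM). Of the sodium-calcium exchangers 2 were counted, Slc8a1 higher (93.1 against 6.53 CPM) and Slc24a3 lower (4.32 against 20.4 CPM). Slc8a1 was at 184 CPM in Adamts16-led cells. Srl, Jph2 and Slc8a1 had plates apart, as Pln and Ryr2 did.

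The other lists were more even. Of 5 calcium-activated channels 1 was higher, the potassium channel Kcnma1 (73.4 against 0.093 CPM), while its partner Kcnmb1 was at 418 against 289 CPM and the chloride channel Ano1 at 556 against 721 CPM. Of other channels that pass calcium 5 of 12 were higher, among them the purine receptor P2rx1 (116 against 27.0 CPM), and 4 lower, among them Pkd2 (45.7 against 228 CPM). Of the calcineurin and NFAT genes 2 of 12 were higher and 2 lower, led by the calcineurin regulator Rcan2 (1217 against 8.81 CPM). The Gq and phospholipase C genes had 4 of 14 higher and 3 lower, with Plcb1 at 31.1 against 6.53 CPM. Of 13 mitochondrial genes 1 was higher, Mcur1 (174 against 35.0 CPM), and 1 lower.

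Endothelial-like cells read fewer of the calcium genes than pericyte-like cells did. Of 34 genes with at least 5 CPM in either, 4 exceeded their pericyte-like level by at least 2-fold and 19 lay at least 2-fold below it, against 15.7% and 18.6% of the comparison genes. Plates were apart for 1 of the 4 and for 17 of the 19, against 7.13% and 13.1%. The median log2 ratio was -1.40 over the 34 genes and -0.10 over the comparison genes. The 2 classes came mostly from different lines and plates, which cannot be told apart from the class, but 12, 10 and 11 endothelial-like cells lay on the mural plates Mural3 to Mural5 and give values within a plate. The comparison uses the same pericyte-like cells as the one with smooth muscle-like cells, so the 2 are not independent.

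The voltage-gated, TRPC and TRPV channels that led in mural cells were near 0 in endothelium. Cacna1c was at 1.72 CPM against 204 CPM in pericyte-like cells, Cacna1h at 0.016 against 83.0 CPM, Cacna2d1 at 0.28 against 69.7 CPM and Trpv2 at 0.077 against 202 CPM. Trpc4 was at 0.022 CPM against 135 CPM and Trpc1 at 0.11 against 32.1 CPM. For Trpc4, Cacna1c and Cacna1h, the pooled level of endothelial-like cells was at most 1.72 CPM, although single plates reached 31.1 CPM for Cacna1c, and within the 3 shared plates each was also at least 2-fold lower. The difference in Stim1 did not hold there: its log2 ratio was -1.67 over all cells and -0.70 to 0.54 within the shared plates.

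The 4 genes higher in endothelial-like cells were Itpr3, Trpm6, Trpv4 and Cacna1e, and they differed along the endothelium. Itpr3, the third IP3 receptor, was at 176, 179, 295 and 131 CPM on the 4 endothelial plates in arterial-like cells, at 48.9 to 74.0 CPM on those plates in capillary-like cells and at 22.7 to 95.3 CPM in venous-like cells. The arterial-like plates lay above all of the others. At 100 CPM or more were 139 of 293 arterial-like cells (47.4%, 41.6 to 53.3), 139 of 880 capillary-like cells (15.8%, 13.4 to 18.4) and 53 of 289 venous-like cells (18.3%, 14.0 to 23.3). Within the 3 shared mural plates its log2 ratio to pericyte-like cells was 1.64 to 4.04, against 4.46 over all cells. Exons of Itpr3 overlap Itpr3os on the other strand.

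Trpv4, a channel opened by warmth and lipids and known in arterial endothelium, was at 137, 68.3, 123 and 52.0 CPM on the 4 endothelial plates in arterial-like cells, and at 8.74 and 23.3 CPM pooled in capillary-like and venous-like cells. It reached 100 CPM in 59 of 293 arterial-like cells (20.1%, 15.7 to 25.2) and in 18 of 880 capillary-like cells (2.05%, 1.22 to 3.21). Trpm6, the magnesium channel related to Trpm7, ran the other way with 4.06 CPM in arterial-like, 33.3 CPM in capillary-like and 55.7 CPM in venous-like cells. Its plates in venous-like cells, at 45.6, 72.9, 66.4 and 37.7 CPM, lay above the arterial-like ones, which were at most 10.6 CPM. Cacna1e, an R-type pore, was at 17.8 CPM in capillary-like and 16.6 CPM in venous-like cells and at 0.33 CPM in arterial-like cells. Within the 3 shared mural plates the log2 ratio to pericyte-like cells went from -0.050 to 5.88 for Trpv4, from -0.49 to 3.69 for Trpm6 and from -2.15 to 0.00 for Cacna1e, so a higher level in endothelium did not hold on each plate.

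The SERCA pumps also differed along the endothelium. Atp2a3 was at 105, 117, 191 and 152 CPM on the 4 endothelial plates in arterial-like cells, against 9.66 CPM in capillary-like and 4.68 CPM in venous-like cells pooled. At 100 CPM or more were 96 of 293 arterial-like cells (32.8%, 27.4 to 38.5) and 20 of 880 capillary-like cells (2.27%, 1.39 to 3.49). Atp2a2 was level, with 93.1, 97.6 and 87.8 CPM. Atp2b4 followed Atp2a3, with 29.4 CPM in arterial-like cells and 1.05 and 0.41 CPM in the others. Beside these levels, the 8 smooth muscle markers summed to 69.9, 35.9 and 19.0 CPM in arterial-like, capillary-like and venous-like cells, against 67849 CPM in smooth muscle-like cells, and the 8 pericyte markers to 45.6, 79.1 and 44.4 CPM.

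The genes read in all 5 large classes differed in how near the endothelial level was to the pericyte-like one. Atp2c1 was at 247 CPM against 349 CPM in pericyte-like cells, Atp2b1 at 140 against 111 CPM, Stim2 at 80.1 against 69.9 CPM and Orai1 at 66.4 against 48.1 CPM. Itpr2, at 225 against 480 CPM, and Orai3, at 63.9 against 199 CPM, were more than 2-fold lower in the pooled endothelial-like cells. Smooth muscle-like cells had less of some of these genes than both, with Itpr2 at 31.1 CPM, Stim2 at 8.60 CPM and Orai1 at 9.58 CPM. Stim2 made up 82.7% of the endothelial Stim level per kilobase and Orai1 49.2% of the Orai level, higher shares than in any mural class. Pln was at 9.04 CPM in endothelial-like cells, about its level in pericyte-like cells, with plates from 0.00 to 64.9 CPM.

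Fibroblast-like and oligodendrocyte-like cells of the Pdgfra-H2BGFP line shared 2 plates and differed in most calcium genes. Of 34 genes with at least 5 CPM in either of the 80 and 150 cells, 23 were at least 2-fold higher in fibroblast-like cells and 4 lower, against 34.8% and 17.9% of the comparison genes. Plates were apart for 21 of the 23 and 3 of the 4, against 27.5% and 15.6%. The median log2 ratio was 2.12 over the 34 genes and 0.36 over the comparison genes. TMM scaling gave 19 higher and 9 lower, and median-of-ratios scaling 21 and 7. The 2 plates differed in depth, with a median of 872052 reads in the 52 fibroblast-like cells of Pdgfra1 and 167712 in the 28 of Pdgfra2.

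Fibroblast-like cells read release, entry and pump genes together. Itpr1 was at 132 and 252 CPM on the 2 plates in fibroblast-like cells and at 1.67 and 5.59 CPM in oligodendrocyte-like cells. Cacna1g was at 43.4 and 11.7 CPM against 0.062 and 0.018 CPM. Orai3 was at 98.1 and 156 CPM against 0.25 and 13.0 CPM, and Atp2b4 at 40.1 and 298 CPM against 2.38 and 0.31 CPM. All of these had plates apart. The P/Q-type pore Cacna1a was at 11.7 CPM pooled over the 80 cells, Cacna2d1 at 55.7 CPM, Cacnb3 at 15.0 CPM and Stim2 at 90.0 CPM, against 0.12, 6.76, 1.99 and 11.9 CPM in oligodendrocyte-like cells. Stim1 was at 218 CPM on the first plate and 56.0 CPM on the second, against 101 and 56.5 CPM, so its log2 ratio of 1.43 rested on the first plate, Pdgfra1, and was -0.010 without it. Without Pdgfra1 the log2 ratio of Orai1 was 0.89 and that of Trpm6 0.41 (3.21 with it), and without Pdgfra2 that of Trpm3 was 0.45 (1.81 with it). The 8 pericyte markers summed to 3596 CPM in the 84 fibroblast-like cells of all lines and to 1.63 CPM in oligodendrocyte-like cells, and the part of mural RNA in these levels was not tested. Without wells that held markers of another class, 32 and 83 cells remained, and Orai1 (log2 ratio 1.34) went to -1.13, Cacnb1 (3.53) to -0.89 and Atp2a3 (2.47) to -0.71.

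Oligodendrocyte-like cells led in 4 of the 43 genes. Cacnb4, a beta subunit, was at 76.3 and 80.8 CPM on the 2 plates against 6.81 and 26.2 CPM in fibroblast-like cells, and 40 of 150 cells reached 100 CPM (26.7%, 19.8 to 34.5). Casq1 was at 9.60 and 47.4 CPM against 0.31 and 0.00 CPM. Cacna2d4, an alpha2delta subunit, was at 37.5 and 25.3 CPM against 1.72 and 0.17 CPM. The fourth was Trpc4ap, at 243 CPM against 142 CPM, within 2-fold. Casq1 and Cacnb4 share exon sequence with Gm17224 and A430018G15Rik on the other strand. Cacnb4 was at 79.8 CPM in the 17 progenitor-like cells as well. Casq2 had no read in the 150 oligodendrocyte-like cells nor in the 80 fibroblast-like cells of this line.

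The 2 smallest classes hold too few cells for more than their leading values. Trpm2, an oxidant-gated channel of immune cells, was at 54.4 CPM over the 21 microglia-like cells, with reads in 5 of them, and below 1 CPM in every other class. Cacng4, a gamma subunit by name, was at 54.2 CPM over the 17 progenitor-like cells, also with reads in 5. Its next level was in fibroblast-like cells, at 3.14 CPM. Of the Casq2 reads behind 272 CPM in progenitor-like cells 91.9% came from 1 cell, and the pericyte markers summed to 6072 CPM there and to 6771 CPM in microglia-like cells, all 8 of them above 5 CPM in both. The part of other cells' RNA in these levels was not tested. Of the other genes that were highest in 1 of the small classes, Cacnb3 reached 50.0 CPM, Cacna1e 33.6 CPM and the PMCA pump Atp2b2 14.4 CPM in progenitor-like cells, and Orai2 reached 37.0 CPM in microglia-like cells. With 17 and 21 cells these levels can rest on few of them.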

How the data were processed

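Reads were aligned with STAR 2.4.2a to mm10, per the submitters' processing notes; the counting tool and its annotation, like any cell filter, were not given in the sources used here. What the authors deposited were raw counts of reads per gene and cell, with no unique molecular identifiers, and 0 columns of values were left unused. Each cell is 1 deposited sample. The labels name no animal, so each reporter line is 1 sample, and no p-value, SD or test is given.

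The genes, the 9 lists of related genes and the comparisons were chosen with earlier results of these data known. Cells were clustered with scanpy 1.11.5 (Python 3.11.15) on 2000 variable genes of 9868, with 30 principal components, 15 neighbours and Leiden resolution 1; 10069 genes, among them all 70 described here, took no part. Mural and endothelial cells were clustered again, and a cluster took the class with the largest share of markers at 50% or more of their highest level over clusters, if over 50 percent were and at least 3 markers reached 20 CPM. It got no name where its 10 leading genes held 2 or more of some other class's markers and fewer of its own; a mural cluster that met no class's share was kept as the Adamts16-led cells. Of the named clusters, 4 had 1 marker of another class and none of their own among the leading genes (a Hbb gene, Slc1a3, and Ttr in 2 of them). No doublet caller was run. Wells that held more than 10 percent of another class's median marker level are called mixed, and were left out as an alternative. They made up 52.4% of pericyte-like, 25.9% of Adamts16-led, 25.2% of smooth muscle-like and 18.4% of endothelial-like cells. In the remaining classes they were 61.9% of fibroblast-like, 44.7% of oligodendrocyte-like, 70.6% of progenitor-like and 66.7% of microglia-like cells.

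Counts were summed over the cells of a class and divided by its total count to give CPM. Total counts per class and exact 95% Poisson or Clopper-Pearson intervals set the precision; they cover counting error only, and where a class had no cell at a level the share that 3 cells would give is printed. A gene was counted in a comparison with at least 5 CPM in either class and called at 2-fold after adding 1 CPM. Plates were apart when the ranges over plates with 10 or more cells of each class did not overlap. Genes were described singly from 10 CPM in a named class, and of each list up to 2 genes at either end with at least 20 CPM. Values per kilobase use the union of GENCODE M21 exons. The libraries do not mark strand, and exons of 24 of the 70 genes overlap a gene on the opposite strand. Promoter windows are from RefSeq (GRCm38.p6). The pooled ratio and its 2-fold call were tested on simulated cells, for smooth muscle-like against pericyte-like cells. Clustering, class naming, plate ranges and the other steps were not tested in this way. Alternatives were edgeR 4.0.16 TMM factors, median-of-ratios factors, the mean of per-cell CPM, any read in place of 5 CPM, 5 CPM added, resolutions 0.5 and 2, the other genes for clustering, mixed wells left out, and each plate left out. Leaving out these 4 clusters was added after seeing the data. Some genes that enter the counts are not reported here by name or drawn.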

Additional observations from a re-analysis of the deposited data

How the results depend on the processing

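Over the alternatives run, the number of calcium genes at least 2-fold higher in smooth muscle-like than in pericyte-like cells ran from 8 to 13 and the number lower from 8 to 12. In endothelial-like against pericyte-like cells the numbers ran from 4 to 5 and from 17 to 22. In fibroblast-like against oligodendrocyte-like cells they ran from 18 to 31 and from 4 to 10. Of the called genes that reached 10 CPM in a named class, 16 of 20, 21 of 23 and 16 of 26 stayed past 2-fold under each alternative run. The 4 exceptions between the mural classes were Cacna1d, Cacnb3, Casq2 and Trpm3, with Casq2 at a log2 ratio of -0.60 at clustering resolution 0.5. The clustering alternatives also changed the classes themselves. In place of 115 smooth muscle-like cells there were 194 at resolution 0.5, 180 at resolution 2 and 169 with the other genes for clustering. With those other genes 420 cells in place of 1462 were named endothelial-like.

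The count of genes lower in fibroblast-like cells, 4 as reported, was 9 with TMM factors, 7 with median-of-ratios factors, 7 with any read in place of 5 CPM, 10 without mixed wells and 6 to 7 with 1 plate left out. With any read in place of 5 CPM, 70 genes in place of 46 were counted as read, by construction. Leaving out 1 plate gave 8 to 11 genes higher and 9 lower in smooth muscle-like cells, 4 to 5 and 18 to 21 in endothelial-like cells, 22 to 23 higher in fibroblast-like cells, and 46 to 47 genes read. TMM factors shifted oligodendrocyte-like cells by 0.33 and fibroblast-like cells by -0.15 on the log2 scale, against -0.06 and 0.07 in pericyte-like and smooth muscle-like cells.

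The log2 ratio turned sign in fibroblast-like against oligodendrocyte-like cells for Orai2 (-0.12) at resolution 2, for Atp2a3 (-0.71), Cacnb1 (-0.89) and Orai1 (-1.13) without mixed wells, and for Cacna1h (0.19) and Stim1 (-0.010) without the plate Pdgfra1, while without Pdgfra2 they were -3.44 and 1.09. It turned sign in smooth muscle-like against pericyte-like cells for Trpm3 (-0.55) without the plate Mural5, against up to 2.28 with another plate left out. The cause was not tested. No paired analysis was possible because no result comes from a test and the groups share no replicate numbers; classes sorted onto the same plates were compared within those plates, as given beside the results. Without the 4 clusters that had a leading marker of another class and none of their own, a choice made after seeing the data, 888 pericyte-like and 700 endothelial-like cells were left, and the counts were 11 and 9, 5 and 19, and 23 and 4 in the 3 comparisons. Levels under 5 CPM, and those in the 17 progenitor-like and 21 microglia-like cells, rest on few reads or cells.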
